A study of Mus musculus with 10 samples.

Results

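The genes described here encode 39 enzymes, subunits and cofactors that write, read or remove methyl groups on histones and DNA, out of 21887 protein-coding genes on the chromosomes covered by the island lists. They were taken by name from the RefSeq gene table of mouse build GRCm38.p6, whose coordinates are those of mm10, and all 39 names were found. By class there were 12 Polycomb genes, 6 trithorax genes, 6 genes of H3K9 methylation, 7 histone demethylase genes and 8 genes of DNA methylation or its removal. The values come from chromatin immunoprecipitation and sequencing (ChIP-seq) of Glast+ cells, isolated from retinas of C57BL/6 mice at postnatal day 28, with no allele or treatment given in the labels. Glast is the glutamate transporter of Müller glia, the radial glia that span the retina. The modifications H3K4me3, H3K4me1, H3K27me3 and H3K9me3 were each mapped in 2 experiments, Exp1 and Exp2, which gave 8 lists of enriched regions called islands. The 2 input libraries were not analysed here.

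Polycomb complexes come in 2 kinds. PRC2 methylates H3K27 and PRC1 binds that mark through its Cbx subunits and ubiquitylates histone H2A. Trithorax-type enzymes of the Kmt2 and Setd1 families methylate H3K4, H3K9 methyltransferases build heterochromatin, and demethylases of the Kdm families remove these methyl groups. Dnmt enzymes methylate cytosine in CpG dinucleotides and Tet enzymes oxidise the methyl group, which starts its removal. In the mouse retina, Ezh2 and Dnmt1 are known to be needed by progenitor cells during development. Of the marks mapped, H3K4me3 is a mark of promoters in use, H3K4me1 of enhancers and promoter flanks, H3K27me3 of Polycomb-bound chromatin and H3K9me3 of heterochromatin.

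The lists held between 4105 and 52342 islands per library, and H3K4me1, H3K27me3 and H3K9me3 each had fewer islands in Exp2 than in Exp1. Islands were called in steps of 200 bp for both H3K4 marks, 3000 bp for H3K9me3 and 5000 bp for H3K27me3, so the repressive marks were read at coarser resolution. Checked against the label, H3K4me3 lay at an end of 10 of 12 Müller glia marker genes, all but Aqp4 and Abca8a, and also at 5 of 8 rod, 5 of 5 cone, 5 of 6 bipolar, 4 of 6 amacrine and 3 of 6 ganglion cell markers. At gene ends H3K4me3 was found at 1 of 5 endothelial markers, 0 of 6 microglial markers and 0 of 4 astrocyte markers. The share of all genes was 58.6%. Within the gene it was found at 12 of 12 Müller glia, 8 of 8 rod, 5 of 5 cone and 6 of 6 bipolar markers. It was found there at 5 of 6 amacrine, 4 of 6 ganglion, 1 of 5 endothelial, 1 of 4 astrocyte and 0 of 6 microglial markers, beside 62.6% of all genes. The median H3K4me3 width at gene ends was 5.1 kb for Müller glia and 15 kb for rod markers. H3K4me3 and H3K27me3 lay at the same end of 2 of 12 Müller glia markers, Rlbp1 and Sox9, beside 5.74% of all genes. They did so at 2 of 6 bipolar, 2 of 6 amacrine and 2 of 6 ganglion cell markers, and at no marker of the other lists. Abca8a had H3K9me3 at an end. The part that other retinal cells had in the islands at the methylation enzyme genes was not tested. In such bulk chromatin a mark on fewer cells and a weaker mark on every cell cannot be told apart.

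Nearly all of the methylation enzyme genes carried H3K4me3, and few carried a repressive mark. A mark was credited to a gene where both experiments had an island over the same gene end or within 1 kb of it, by an overlap of at least 1 bp. H3K4me3 marked 35 of the 39 genes, beside 58.6% of all protein-coding genes. H3K4me1 marked 31 genes, beside 54.6% of all genes. When islands had to cover at least 50% of the window, H3K4me1 marked 19 genes (48.7%), beside 43.7% of all genes, so the gap to other genes was much smaller under that setting. H3K27me3 marked 5 genes, beside 23.3% of all genes, and H3K9me3 marked 0 genes, beside 13.4% of all genes. H3K4me3 without H3K27me3 was found at 30 genes, beside 51.9% of all genes. Taking only genes with H3K4me3, 30 of 35 here and 11362 of 12823 over all genes had no H3K27me3. Among such genes H3K27me3 was therefore no rarer at the methylation enzyme genes. No test was made of the 39 genes against the rest, because the genes were chosen by name with earlier results of these data known. Permuting 2 against 2 experiments exactly gives a two-sided p of 0.333 at the smallest, so marks are compared by their values alone. The labels do not say whether the experiments used separate animals, and the spread between them may be technical.

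The commonest pattern was H3K4me3 with H3K4me1 and neither repressive mark, found at 26 of the 39 genes, beside 42.8% of all genes. Of the Polycomb genes it took in Ezh1, Eed, Suz12, Jarid2 and Pcgf2. It took in all 6 trithorax genes, Kmt2a, Kmt2b, Kmt2c, Kmt2d, Setd1a and Setd1b, and 5 of 6 H3K9 genes, Suv39h2, Setdb1, Ehmt1, Ehmt2 and Trim28. It also took in 6 of 7 demethylase genes, Kdm1a, Kdm4b, Kdm4c, Kdm5a, Kdm5b and Kdm6b, and 4 of 8 genes of DNA methylation, Dnmt3b, Tet1, Tet3 and Uhrf1. The marks did not have to share an end. At Kdm1a H3K4me3 lay at the start, where H3K4me1 was called in Exp1 alone, and H3K4me1 lay at the other end in both experiments. The other 13 genes fell into 3 patterns. H3K4me3 without a second mark was found at Ezh2, Rnf2, Setdb2 and Tet2, H3K27me3 was added at Ring1, Bmi1, Cbx2, Cbx8 and Kdm4a, and no mark was called at either end of Cbx7, Dnmt1, Dnmt3a and Dnmt3l.

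**Figure D1:**
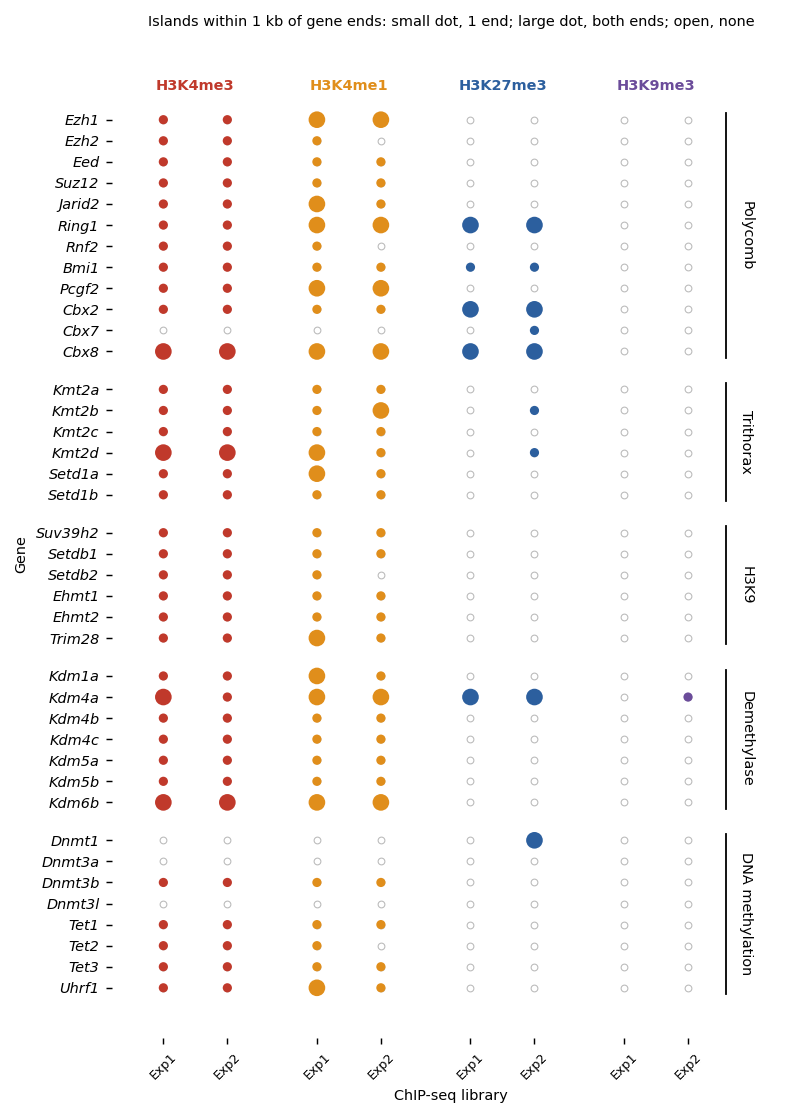
Each row is 1 of the 39 genes, grouped by class, and each column is 1 of the 8 ChIP-seq libraries, with a small dot where an island of that mark lay within 1 kb of 1 gene end, a large dot where islands lay at both ends, and an open dot for none. The H3K4me3 columns are filled for the same 35 genes in Exp1 and Exp2, and the H3K27me3 columns have 5 filled dots in Exp1 and 9 in Exp2.

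The experiments gave the same H3K4me3 calls at all 39 genes. There were 35 genes with H3K4me3 in Exp1 and 35 in Exp2, beside 59.6% and 60.6% of all genes. H3K4me1 was called at 35 genes in Exp1 and 31 in Exp2, beside 66.2% and 56.5% of all genes. The 4 genes with H3K4me1 in Exp1 alone were Ezh2, Rnf2, Setdb2 and Tet2, the same 4 that had H3K4me3 without a second mark. Their pattern therefore rests on the Exp2 library of H3K4me1, which had 37200 islands, against 52342 in Exp1. In Exp2 the nearest H3K4me1 island lay 1391 bp from an end of Rnf2 and 1936 bp from one of Tet2. Both distances exceed the 1 kb window, while that of Jarid2, 974 bp, lay just inside it. H3K4me3 without H3K4me1 was thus found at 4 of the 35 genes with H3K4me3, beside 16.7% of all such genes.

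H3K4me3 islands at the methylation enzyme genes were 4.1 kb wide at the median over 35 genes, taking for each gene the mean of the experiments and at each end the widest island. The median over all 12823 marked genes was 3.2 kb. In Exp1 the medians were 5.0 kb for the methylation enzyme genes and 3.4 kb for all marked genes, and in Exp2 they were 3.4 kb and 2.8 kb. The island was wider in Exp1 at 23 of 35 genes, wider in Exp2 at 9 and equal at 3, beside 65.7% of all marked genes that were wider in Exp1. Among the widest 5% of marked genes, with a mean width of 7.2 kb or more, were 7 of the 35 genes, beside 5.26% of all marked genes. They were Kdm5b, Kdm6b, Setd1b, Ring1, Kmt2a, Cbx8 and Jarid2.

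The 3 widest islands at gene ends belonged to a demethylase of H3K4, a demethylase of H3K27 and a methyltransferase of H3K4. Kdm5b, which removes H3K4 methylation, lay on chromosome 1 at 134560178 to 134632878 and had at its start an island 14 kb wide in Exp1 and 14.4 kb wide in Exp2 (mean 14.2 kb ± 0.283, SD, n = 2). Kdm6b, which removes H3K27 methylation, lay on chromosome 11 at 69398508 to 69420367 and had islands of 13.8 kb and 14.2 kb at the wider-marked of its ends. Setd1b, the catalytic subunit of a Set1-type H3K4 methyltransferase complex, lay on chromosome 5 at 123142040 to 123168630 and had islands of 12.6 kb and 15.4 kb. These 3 genes stood above 99.3% or more of all marked genes in mean width, and in both experiments they were wider than the other 32 genes, except that Ring1 exceeded Setd1b in Exp1. Ring1 had 13.2 kb in Exp1 and 6.8 kb in Exp2, a spread of 4.53 kb (SD, n = 2) that was the largest of the 35 genes. Relative to the Ring1 start, the Exp1 island ran from -11.52 to 1.68 kb, across H2-Ke6 and Slc39a7 and into Rxrb, and the Exp2 island from -3.92 to 2.88 kb, across H2-Ke6 and into Slc39a7. Its width therefore includes neighbouring genes. The narrowest islands at gene ends were at Setdb1, the H3K9 methyltransferase recruited by Trim28, with 2.0 kb in Exp1 and 1.6 kb in Exp2. Next came Cbx2 with 2.8 kb and 1.6 kb, Ezh1 with 2.2 kb and 2.4 kb, Tet1 with 2.8 kb and 2.6 kb, and Dnmt3b with 3.2 kb and 2.6 kb. The narrow islands of these 5 genes differed from the 3 widest ones by far more than the spread between experiments, while the range of Cbx2 overlapped those of the other 4.

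**Figure D2:**
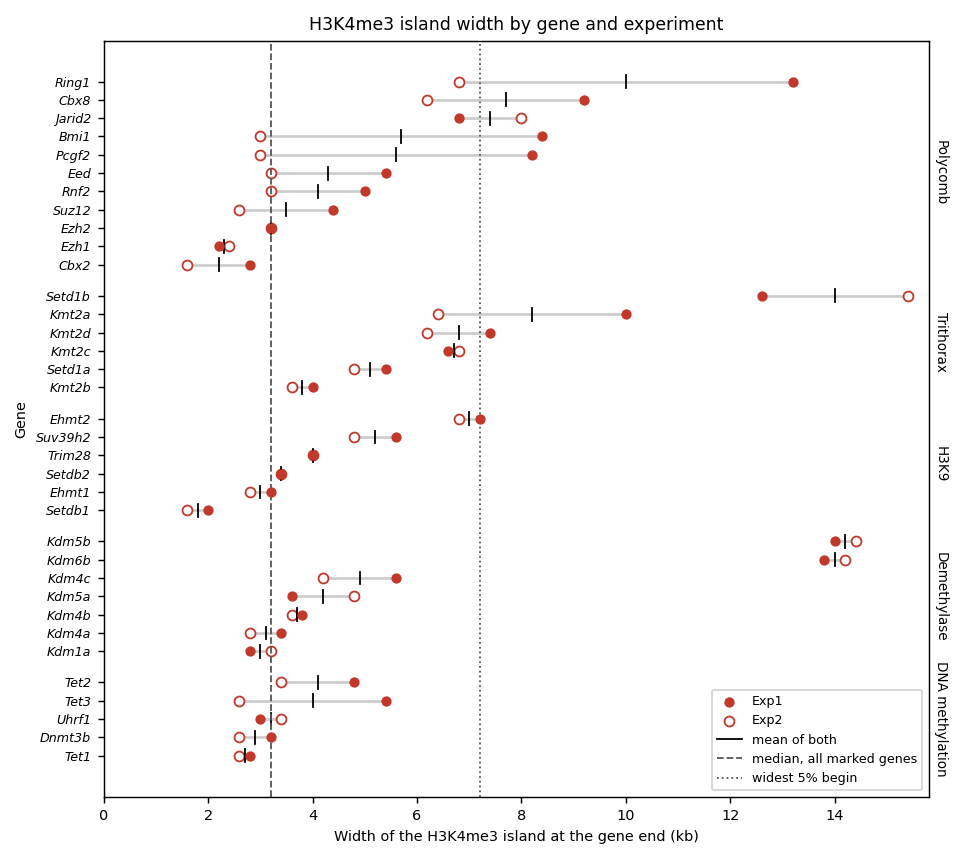
Width of the H3K4me3 island at a gene end in kb for the 35 genes with H3K4me3, by class, with a filled point for Exp1, an open point for Exp2 and a tick at their mean. The dashed line is the median over all marked genes (3.2 kb) and the dotted line the width at which the widest 5% begin (7.2 kb). Kdm5b, Kdm6b and Setd1b lie above 12 kb in both experiments, and Setdb1 lies lowest with a mean of 1.8 kb.

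By class, the trithorax genes had the widest islands at gene ends and the genes of DNA methylation the narrowest. The median was 6.75 kb over 6 trithorax genes (range 3.8 to 14 kb), 4.3 kb over 11 Polycomb genes (2.2 to 10 kb) and 4.2 kb over 7 demethylase genes (3.0 to 14.2 kb). It was 3.7 kb over 6 H3K9 genes (1.8 to 7.0 kb) and 3.2 kb over 5 genes of DNA methylation (2.7 to 4.1 kb). The ranges of the classes overlapped, and the classes were not tested against each other. Islands at listed starts inside a gene were left out of these medians. Among the genes of DNA methylation, those at Tet3 were 17.8 kb (Exp1) and 12.8 kb (Exp2) wide. Those at Dnmt3a were 8.2 and 6.2 kb wide, and those at Dnmt1 were 2.6 and 2.0 kb wide.

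Among the PRC2 genes, the catalytic subunits and their partners all carried H3K4me3, and none carried H3K27me3 at an end. Ezh2, the main methyltransferase of dividing cells, had H3K4me3 islands of 3.2 kb in both experiments, and Ezh1, its paralogue in resting cells, had 2.2 and 2.4 kb. The core partners Eed and Suz12 had 5.4 and 3.2 kb and 4.4 and 2.6 kb in Exp1 and Exp2. Jarid2, which helps to bring PRC2 to its targets, had the widest island of the group, with 6.8 kb in Exp1 and 8.0 kb in Exp2. H3K4me1 covered 96.2% of the 191 kb Jarid2 gene in Exp1 and 64.2% in Exp2.

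Jarid2 was also the gene in which repressive islands lay inside the transcription unit and away from its ends. The p given with an island in the deposited lists is the authors' own and describes that island's enrichment in 1 library. H3K27me3 began 134 kb from the nearest listed start, in an island 10 kb wide in Exp1 (the authors' p = 0.149) and 5.0 kb wide in Exp2 (the authors' p = 0.00016). It overlapped an H3K9me3 island of 3.0 kb at chromosome 13, 44868001 to 44871000, at the same coordinates in both experiments (the authors' p = 2.26e-12 in Exp1 and 5.04e-12 in Exp2). In Exp2 an H3K4me3 island of 0.8 kb lay at the same place (the authors' p = 0.00266), and none was listed there in Exp1. Counting islands anywhere in a gene or within 1 kb of it, Jarid2 was the gene with H3K9me3 in both experiments among the 39.

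The PRC1 genes held 4 of the 5 genes with H3K27me3. Ring1, a catalytic subunit that ubiquitylates histone H2A, lay on chromosome 17 at 34020792 to 34024680, and both of its ends lay under H3K27me3 islands of 110 kb (Exp1) and 295 kb (Exp2). The Exp1 island had an authors' p of 0.181, and that of Exp2 had 1.83e-25. The Exp1 island spanned 6 protein-coding genes, H2-K1, Ring1, H2-Ke6, Slc39a7, Rxrb and Col11a2, and all 6 had H3K4me3. The Exp2 island spanned 17 genes, of which 13 had H3K4me3, so the mark at Ring1 was part of a domain over many marked genes. Its paralogue Rnf2 had H3K4me3 islands of 5.0 and 3.2 kb and lay 254 kb from H3K27me3 in both experiments.

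Cbx2 and Cbx8, subunits that bind methylated H3K27, lie side by side on chromosome 11 and shared a single H3K27me3 island. It was 90.0 kb wide in Exp1 (the authors' p = 6.95e-07) and 110 kb in Exp2 (the authors' p = 3.71e-30). It covered 100% of both genes in both experiments. Within it, Cbx8 had H3K4me3 islands of 9.2 and 6.2 kb and Cbx2 had 2.8 and 1.6 kb, and H3K4me1 covered 100% of Cbx8 in both experiments.

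At Bmi1, a Pcgf-type partner of Ring1 and Rnf2, the marks lay at opposite ends. The start had H3K4me3 islands of 8.4 kb (Exp1) and 3.0 kb (Exp2), and the other end lay under an H3K27me3 island of 20 kb in both experiments (the authors' p = 4.47e-65 and 1.48e-27). That island began 7.98 kb from the start and ran on over Gm46725 and Spag6. Its paralogue Pcgf2 had H3K4me3 islands of 8.2 kb (Exp1) and 3.0 kb (Exp2) and no H3K27me3 at an end. Bmi1 and Pcgf2 were both much wider in Exp1, with spreads of 3.82 and 3.68 kb (SD, n = 2). Relative to the Bmi1 start, the Exp1 island ran from -6.02 to 2.38 kb, across Commd3. In Exp2 separate islands ran there from -5.22 to -2.42 kb and from -1.22 to 1.78 kb. At Pcgf2 the Exp1 island also took in the listed start 2.79 kb inside, where Exp2 had a separate island of 3.8 kb. These widths therefore depend on whether adjacent islands were joined.

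Kdm4a, a demethylase of H3K9 and H3K36, was the gene with H3K27me3 outside the Polycomb class. Its gene runs on the minus strand of chromosome 4 from 118180090 to 118136957. An H3K27me3 island of 10 kb in both experiments reached the start from upstream (the authors' p = 3.01e-28 in Exp1 and 3.75e-06 in Exp2) and covered 0.209% of the gene. Another, 65.0 kb wide in Exp1 and 90.0 kb wide in Exp2, covered its other end and St3gal3. H3K4me3 islands of 3.4 and 2.8 kb lay at the same start. H3K9me3 lay beside them: the Exp2 island, 30 kb wide (the authors' p = 5.5e-08), covered the start and 44.3% of the gene, and the Exp1 island stopped 1911 bp short of it. The start of Kdm4a was thus met by islands of all 4 marks in Exp2 and of 3 marks in Exp1.

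H3K4me3 and H3K27me3 at the same end in both experiments were found at 4 genes, Ring1, Cbx2, Cbx8 and Kdm4a, beside 5.74% of all genes. With islands at or below the median p-value of their list, 0 of the 39 genes had both marks at the same end, beside 0.95% of all genes, and 1 gene, Bmi1, had H3K27me3, beside 18.8% of all genes. Whether the marks lay on the same chromosomes of the same cells cannot be told apart from a mixture of cells in these data.

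**Figure D3:**
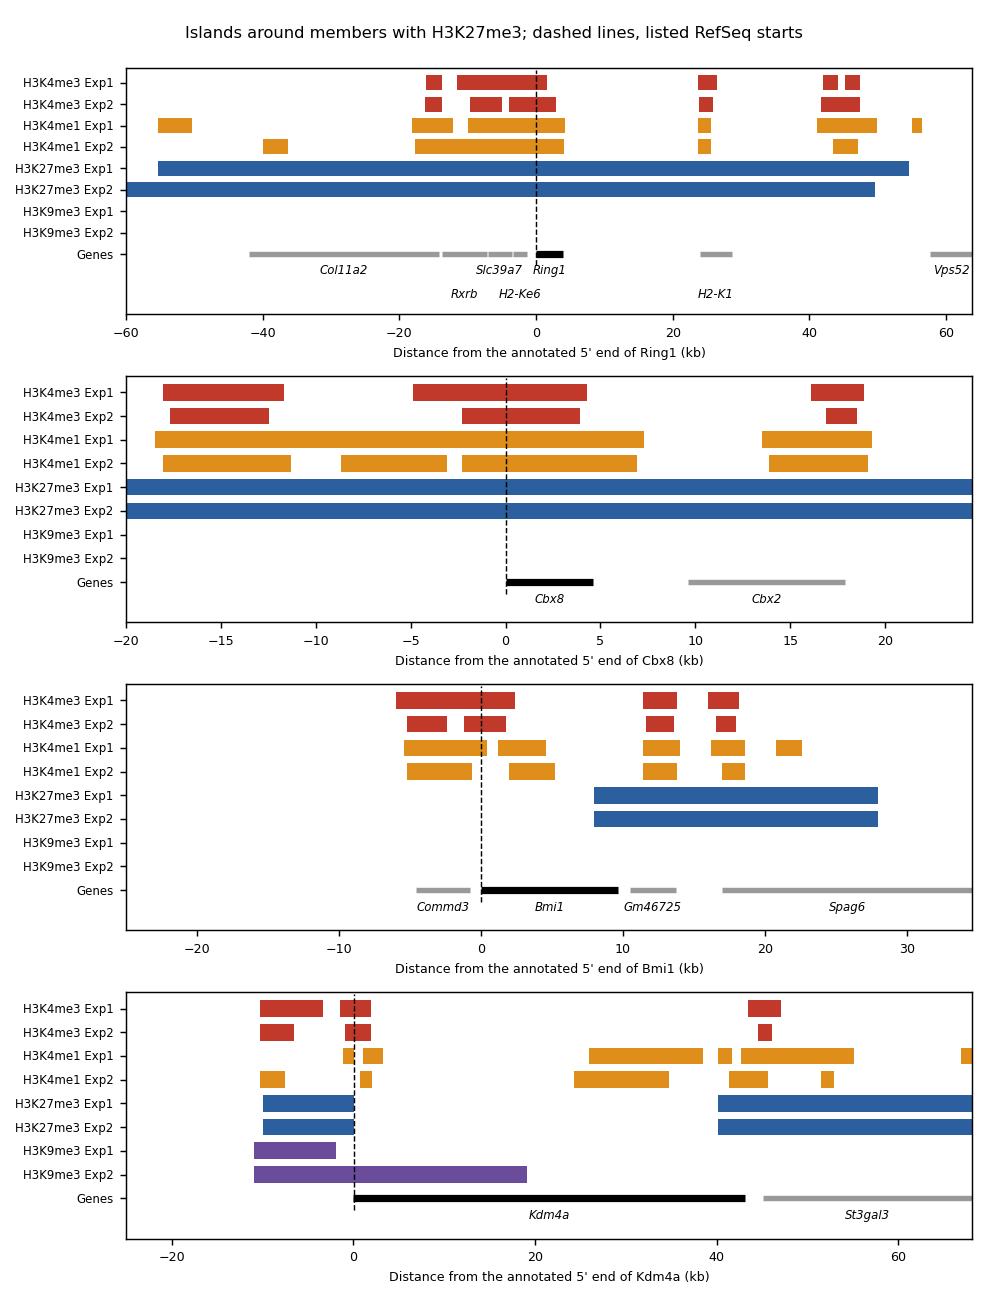
Islands of the 4 marks in Exp1 and Exp2 around Ring1, Cbx8 with Cbx2, Bmi1 and Kdm4a, against distance from the annotated 5′ end in kb, with protein-coding genes below and listed RefSeq starts as dashed lines. The H3K27me3 islands span the whole of Ring1, Cbx8 and Cbx2, begin 7.98 kb from the start of Bmi1, and flank Kdm4a at both ends.

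In Exp2, 4 further genes had an H3K27me3 island at an end, which made 9 genes in Exp2 and 5 in Exp1, beside 27.1% of all genes in Exp2 and 29.3% in Exp1. At Cbx7 the island was 95 kb wide (the authors' p = 0.0898) and lay over the annotated 5′ end, 7.36 kb from the listed start. At Kmt2d, an H3K4 methyltransferase of enhancers, it lay over the 3′ end, 16.2 kb from the listed start. The Kmt2d island was 85 kb wide and held Wnt1 and Wnt10b (the authors' p = 5.14e-30). At Kmt2b, another H3K4 methyltransferase, it was 215 kb wide and spanned 14 genes, of which 7 had H3K4me3. At Dnmt1 an island of 75 kb lay over the 3′ end (the authors' p = 0.24) and one of 105 kb over the outermost start (the authors' p = 5.11e-20). The islands of Exp2 were fewer and wider than those of Exp1, with a median of 80 kb, against 50 kb in Exp1. H3K9me3 was called at an end of Kdm4a in Exp2, beside 14.8% of all genes, and at none of the 39 genes in Exp1, beside 16.7% of all genes.

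The repressive marks were also read over whole genes. An H3K27me3 island overlapped 6 of the 39 genes in Exp1 and 10 in Exp2, beside 31.8% and 27.8% of all genes. An H3K9me3 island overlapped 1 gene in Exp1, Jarid2, and 2 in Exp2, Jarid2 and Kdm4a, beside 21.5% and 17.3% of all genes. The median distance to the nearest H3K27me3 island was 53.8 kb in Exp1 for the 39 genes and 36.0 kb for all genes, while in Exp2 it was 31.8 kb for the 39 genes and 74.8 kb for all genes. The order of these medians turned between the experiments, so the 39 genes were neither nearer nor farther in both. For H3K9me3 the order held, with 192 kb for the 39 genes and 80.1 kb for all genes in Exp1, and 405 kb and 167 kb in Exp2.

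The 4 genes without a mark at either end were then read at the transcription starts that RefSeq lists, some of which lie inside the gene. The promoter table lists 43 starts for 33 of the 39 genes, and it does not list Cbx2, Kmt2b, Setd1b, Kdm4b, Kdm5a and Kdm6b. H3K4me3 lay within 1 kb of a listed start in both experiments at 32 of 33 genes, beside 60.2% of the 17492 genes with a listed start. H3K4me1 did so at 26 of 33 genes, beside 54.4%, H3K27me3 at 3, beside 21.6%, and H3K9me3 at 0, beside 12.5%. Of the 4 genes without H3K4me3 at an end, 3 had it at a listed start inside the gene, Cbx7, Dnmt1 and Dnmt3a. Of all 7232 genes of that kind, 604 did, or 8.35%.

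Dnmt1, the maintenance methyltransferase that copies methylation after replication, lies on the minus strand of chromosome 9 from 20959888 to 20907206. Its outermost start had no H3K4me3 in either experiment. The starts 6.91 and 7.26 kb inside the gene shared an H3K4me3 island, 2.6 kb wide in Exp1 and 2.0 kb wide in Exp2. Dnmt3a, a methyltransferase that sets new methylation, lies on the plus strand of chromosome 12 from 3801559 to 3914443. Starts 5.42 and 5.6 kb inside it shared an H3K4me3 island, 8.2 kb wide in Exp1 and 6.2 kb wide in Exp2, while a start 90.18 kb inside had none but lay in H3K4me1 islands of 18 kb and 10 kb. Cbx7, the Cbx subunit on chromosome 15, had H3K4me3 islands of 2.6 kb in both experiments at its listed start, 38.5 kb inside the gene.

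Dnmt3l, a cofactor of the Dnmt3 enzymes known from germ cells and embryos, differed from these 3 genes. It lies on the plus strand of chromosome 10 from 78042287 to 78063622, and no H3K4me3 or H3K4me1 island was listed within it in either experiment. All 3 of its listed starts were without H3K4me3. The nearest H3K4me3 island of Exp1 lay 3579 bp beyond an end, and in Exp2 an H3K27me3 island lay 1379 bp from it, outside the window. H3K4me3 was found within the gene in both experiments at 38 of the 39 genes, the exception being Dnmt3l, beside 62.6% of all genes. It was found in neither experiment at 34.4% of all genes.

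RefSeq sequences of starts with and without H3K4me3 are printed to show how they differed in CpG content. They run from 250 bases before to 50 after the start on the gene's own strand (build GRCm38.p6) and are in lower case with every CpG dinucleotide (letters CG, which read the same on both strands) in capitals. The outermost Dnmt1 start, without H3K4me3 (chr9:20959839-20960138, minus strand), held 2 CpG, and 11.4% of all listed starts held fewer.
Dnmt1 outermost start: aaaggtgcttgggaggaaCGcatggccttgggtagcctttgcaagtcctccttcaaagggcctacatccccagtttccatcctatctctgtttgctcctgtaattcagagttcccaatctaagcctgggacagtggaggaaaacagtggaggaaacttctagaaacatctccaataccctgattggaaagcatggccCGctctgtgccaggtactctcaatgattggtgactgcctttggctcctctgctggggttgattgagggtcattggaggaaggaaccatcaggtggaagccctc
The innermost Dnmt1 start, under the H3K4me3 island (chr9:20952574-20952873, minus strand), held 33 CpG, and 88.7% of all starts held fewer.
Dnmt1 inner start: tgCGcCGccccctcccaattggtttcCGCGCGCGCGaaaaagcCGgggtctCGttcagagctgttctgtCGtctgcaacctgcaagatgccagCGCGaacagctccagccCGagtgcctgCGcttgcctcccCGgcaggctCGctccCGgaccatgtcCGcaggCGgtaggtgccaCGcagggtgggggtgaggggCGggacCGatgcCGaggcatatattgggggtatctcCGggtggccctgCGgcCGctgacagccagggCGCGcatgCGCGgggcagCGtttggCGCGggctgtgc
The Dnmt3a start 5.42 kb inside the gene, with H3K4me3 (chr12:3806730-3807029, plus strand), held 46 CpG, and 97.9% of all starts held fewer.
Dnmt3a upstream start: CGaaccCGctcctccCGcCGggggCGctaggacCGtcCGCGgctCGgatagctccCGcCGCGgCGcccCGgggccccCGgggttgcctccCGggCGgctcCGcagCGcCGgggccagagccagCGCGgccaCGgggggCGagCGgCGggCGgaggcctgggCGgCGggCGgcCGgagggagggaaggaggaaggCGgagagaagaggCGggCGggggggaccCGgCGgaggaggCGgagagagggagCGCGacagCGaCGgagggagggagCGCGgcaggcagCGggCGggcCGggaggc
The Dnmt3a start 90.18 kb inside, without H3K4me3 (chr12:3891494-3891793, plus strand), held 18 CpG, and 59.7% of all starts held fewer.
Dnmt3a inner start: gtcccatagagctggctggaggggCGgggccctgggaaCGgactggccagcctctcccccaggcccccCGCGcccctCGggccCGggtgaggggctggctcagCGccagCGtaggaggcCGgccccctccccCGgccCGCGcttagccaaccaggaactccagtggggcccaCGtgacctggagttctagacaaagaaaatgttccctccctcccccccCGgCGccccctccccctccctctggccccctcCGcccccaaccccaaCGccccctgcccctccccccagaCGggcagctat
The first Dnmt3l start, without H3K4me3 (chr10:78042037-78042336, plus strand), held 6 CpG, and 32.3% of all starts held fewer.
Dnmt3l first start: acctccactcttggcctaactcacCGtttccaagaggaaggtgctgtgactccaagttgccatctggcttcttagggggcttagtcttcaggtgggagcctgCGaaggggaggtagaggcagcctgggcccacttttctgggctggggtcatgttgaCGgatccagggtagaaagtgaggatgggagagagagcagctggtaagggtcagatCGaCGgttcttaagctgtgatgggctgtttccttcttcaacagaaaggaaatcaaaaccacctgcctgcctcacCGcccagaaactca
For comparison, the start of Kdm5b, the gene with the widest H3K4me3 island at a gene end (chr1:134559928-134560227, plus strand), held 17 CpG, and 57.3% of all starts held fewer.
Kdm5b start: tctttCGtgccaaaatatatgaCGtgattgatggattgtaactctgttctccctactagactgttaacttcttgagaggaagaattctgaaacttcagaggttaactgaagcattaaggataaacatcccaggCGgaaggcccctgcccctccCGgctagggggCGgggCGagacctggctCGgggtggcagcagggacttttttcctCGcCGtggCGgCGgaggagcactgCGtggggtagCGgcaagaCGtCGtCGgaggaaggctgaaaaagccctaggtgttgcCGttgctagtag
The start of Cbx8, with both H3K4me3 and H3K27me3 (chr11:119040864-119041163, minus strand), held 24 CpG, and 73.1% of all starts held fewer.
Cbx8 start: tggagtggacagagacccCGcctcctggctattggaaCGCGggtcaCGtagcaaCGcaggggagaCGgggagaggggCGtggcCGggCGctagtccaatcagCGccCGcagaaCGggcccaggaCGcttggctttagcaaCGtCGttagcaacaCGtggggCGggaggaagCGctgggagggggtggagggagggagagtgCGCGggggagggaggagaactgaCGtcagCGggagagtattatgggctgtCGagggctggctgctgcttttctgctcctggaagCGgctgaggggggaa

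Within Dnmt1 and within Dnmt3a the starts with H3K4me3 were the richer in CpG, while Kdm5b had its wide island over a start of middling CpG content. Over all 43 starts of the 33 genes the median was 27 CpG in 300 bases (range 0 to 57), against 13 over all 21263 listed starts. The 38 starts with H3K4me3 in both experiments had a median of 28.5 CpG, and the 5 without it in either had 4 (range 2 to 18). Over all genes the medians were 22 CpG at starts with H3K4me3 and 3 at starts without it. At least 10 CpG were found at 88.4% of the 43 starts and at 56.8% of all listed starts. A start with H3K4me3 and no CpG was the outermost one of Kdm4c, with islands of 5.6 kb (Exp1) and 4.2 kb (Exp2).

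H3K4me3 islands away from both gene ends that overlapped an island of the other experiment were found at 11 of the 39 genes. The same count was not made over all genes, so it cannot be read as a trait of the 39 genes. The 39 genes were also longer, with a median length of 38.9 kb against 17.2 kb for all genes. At 6 of the 11 genes, Pcgf2, Cbx7, Kdm4c, Dnmt1, Dnmt3a and Tet3, a listed start lay within 1 kb. At Pcgf2 the Exp1 island ran on to the gene end. Tet3, which oxidises methylated cytosine, had its widest H3K4me3 not at the gene end but at the start 15.53 kb inside. The inner island was 17.8 kb wide in Exp1 and 12.8 kb in Exp2, against 5.4 kb and 2.6 kb at the gene end. In Exp1 it was wider than the gene-end island of Kdm5b, and in Exp2 narrower. Kdm4c, a paralogue of Kdm4a, had an inner island at a start 9.38 kb inside, and its width was 13.0 kb in Exp1 and 6.0 kb in Exp2. In both genes the inner island was wider than that at the end in both experiments. No start was listed within 1 kb of the inner islands of Jarid2, Kmt2a, Kmt2c and Tet1. At Tet1 the inner island was 6.8 kb wide in Exp1 and 3.6 kb in Exp2, against 2.8 kb and 2.6 kb at the end. At Kmt2a, the founding member of its H3K4 methyltransferase family, it was 5.6 kb and 4.6 kb wide, centred 34.2 and 33.9 kb from the start, and at Kmt2c it was 1.0 kb wide in both. Jarid2 had one of 3.0 kb (Exp1) and 2.6 kb (Exp2), centred 109.9 and 110.5 kb from the start. Setd1b, for which no start is listed, had inner islands of 1.8 kb and 2.8 kb.

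**Figure D4:**
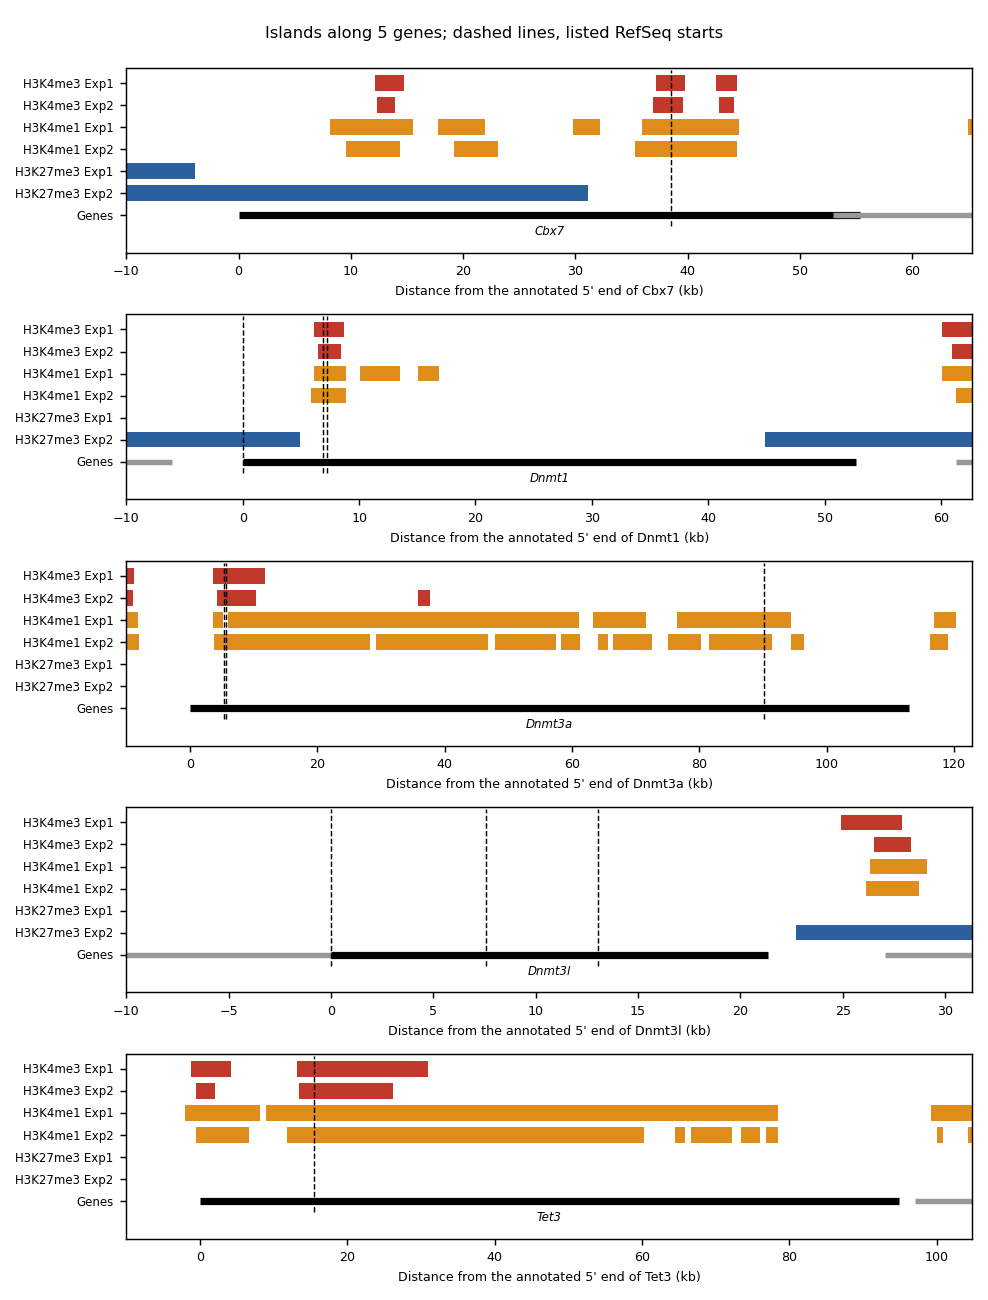
H3K4me3, H3K4me1 and H3K27me3 islands in Exp1 and Exp2 along Cbx7, Dnmt1, Dnmt3a, Dnmt3l and Tet3, against distance from the annotated 5′ end in kb, with listed RefSeq starts as dashed lines. The H3K4me3 islands of Dnmt1 and Dnmt3a lie at inner starts, and the island of Tet3 at its inner start is 17.8 kb wide in Exp1.

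H3K4me1 covered more of the methylation enzyme genes than of genes at large. The median share of gene length under H3K4me1 was 36.3% over the 39 genes (mean of the experiments), against 11.0% over all genes. It was 39.3% in Exp1 and 27.1% in Exp2 for the 39 genes, against 14% and 5.79% for all genes. Among genes of 50 kb or longer it was 31.0% for 16 of the 39 genes and 8.0% for all 4945. Among genes with the commonest pattern of marks the medians lay closer, at 32.3% for 26 of the 39 genes and 28.8% for all 9372. There they were 33.9% and 35.1% in Exp1 and 21.8% and 21.1% in Exp2, so their order turned between the experiments.

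The H3K4me1 share of gene length differed between paralogues, some of which, Dnmt3b (38.3 kb) and Kdm4a (43.1 kb), are shorter than 50 kb. Jarid2, Tet3 and Dnmt3a had 96.2%, 81.8% and 73.5% of their length under H3K4me1 in Exp1 and 64.2%, 69.8% and 70.5% in Exp2, which put them above 98.1% or more of all genes of 50 kb or longer. The relatives of Tet3 and Dnmt3a had less. Tet2 had 19.8% in Exp1 and 8.59% in Exp2, Tet1 had 28.1% and 23.0%, and Dnmt3b had 4.67% and 4.18%. For these genes the difference between paralogues exceeded the difference between experiments. Kdm4b, a further Kdm4 demethylase, had 67.4% and 61.4%, against 39.3% and 31.6% for Kdm4a. At Kdm1a, which removes mono- and dimethyl groups from H3K4, the experiments differed most, with 70.1% in Exp1 and 13.0% in Exp2. Kdm5a, the paralogue of Kdm5b, had 6.71% and 6.84%, against 47.6% and 37.2% for Kdm5b.

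**Figure D5:**
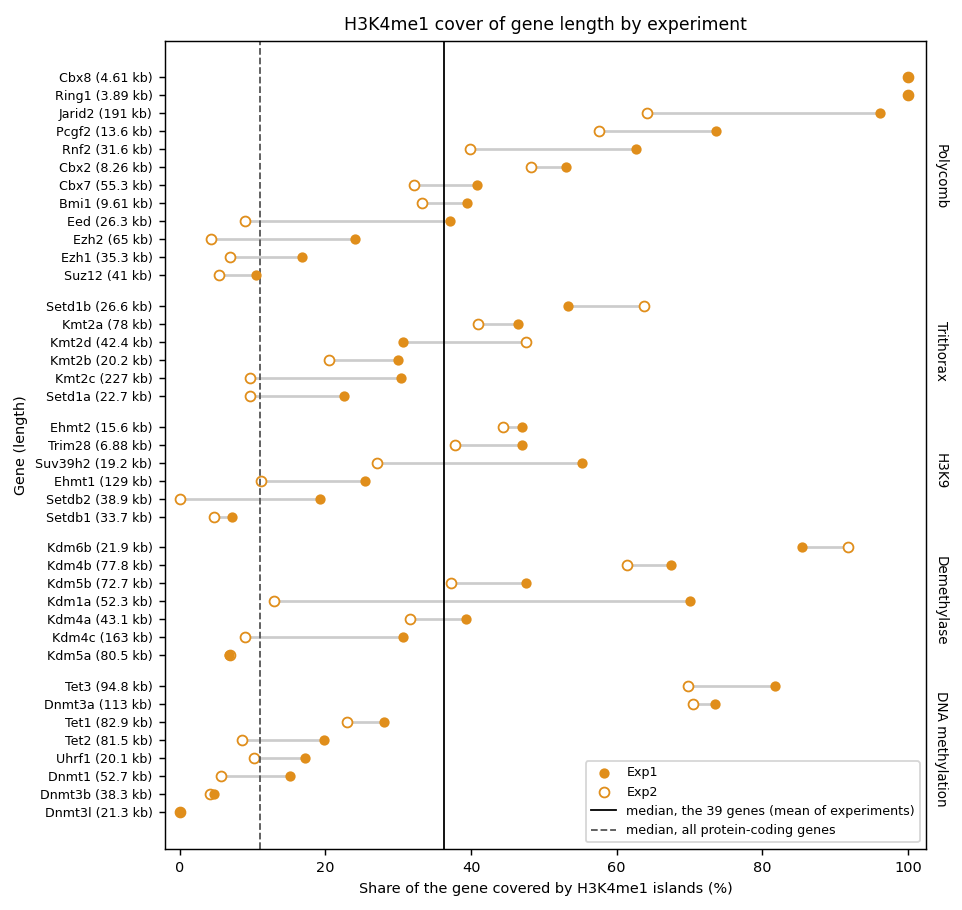
Share of gene length under H3K4me1 islands in percent for each of the 39 genes, by class, with a filled point for Exp1 and an open point for Exp2, and lines at the medians over the 39 genes (36.3%) and all genes (11.0%). Ring1, Cbx8, Kdm6b, Jarid2, Tet3, Dnmt3a and Kdm4b lie above 60% in both experiments, Dnmt3l is at 0%, and Kdm1a has the largest distance between its points.

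All 6 genes of H3K9 methylation carried H3K4me3, and none carried a repressive mark at an end in either experiment. Ehmt2, which with Ehmt1 forms the main H3K9 dimethyltransferase, had islands of 7.2 kb (Exp1) and 6.8 kb (Exp2), against 3.2 and 2.8 kb for Ehmt1. Suv39h2, a methyltransferase of pericentric heterochromatin, had 5.6 and 4.8 kb, and Trim28, the corepressor that recruits Setdb1, had 4.0 kb in both. Setdb2 had 3.4 kb in both experiments, and H3K4me1 covered 19.2% of it in Exp1 and 0% in Exp2. Ehmt2 was thus wider than every other H3K9 gene in both experiments.

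Of the genes not yet described, Uhrf1, which guides Dnmt1 to newly replicated DNA, had H3K4me3 islands of 3.0 kb and 3.4 kb. Kdm4b had 3.8 and 3.6 kb, Kdm5a 3.6 and 4.8 kb, Kmt2b 4.0 and 3.6 kb, and Setd1a, the paralogue of Setd1b, 5.4 and 4.8 kb. Tet2 had 4.8 and 3.4 kb, and Kmt2c and Kmt2d had 6.6 and 6.8 kb and 7.4 and 6.2 kb. Among paralogues, Setd1b stood above Setd1a, Kdm5b above Kdm5a and Kmt2a above Kmt2b in both experiments.

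An island at a gene end can belong to a neighbour. Another protein-coding gene lay within 1 kb of an end at 20 of the 39 genes. The same count was not made over all genes, so it cannot be read as a trait of the 39 genes. At Bmi1 (Commd3), Kdm5b (Mgat4e), Kdm6b (Dnah2) and Setd1b (Rhof) that end had H3K4me3, so island and gene are paired there by position alone. At Jarid2 the neighbour, Dtnbp1, lay by the end without H3K4me3, and the same held at some of the other genes.

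The other genes of the same pathways, 65 of which are reported here, were read in the same way. H3K4me3 marked 62 of them, beside 58.6% of all genes, and H3K4me1 marked 46, beside 54.6%. H3K27me3 marked 6, beside 23.3% of all genes, and H3K9me3 marked 1, beside 13.4%. The median H3K4me3 width was 3.65 kb, against 3.2 kb over all marked genes. H3K27me3 was found at 2 of 20 further Polycomb genes, Epop and Pcgf1, at 3 of 11 H3K9 genes, Wiz, Mecom and Prdm16, and at Mbd1, a protein that binds methylated DNA. At all 6 it lay at the same end as H3K4me3, a pattern found at 5.74% of all genes. The 3 genes without H3K4me3 at an end, Ash2l, Dpy30 and Tasor, had it within the gene in both experiments, and Dpy30 and Tasor had it at a listed start. Ash2l and Dpy30 are core subunits of the complexes that hold the Kmt2 and Setd1 enzymes.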

How the data were processed

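ChIP-seq islands of 4 histone marks in Glast+ retinal cells were used, 2 experiments a mark. Chromatin of 25000 cells was used per immunoprecipitation, per the labels' protocols. The submitters' processing notes name mm10 and the tools SICER, BWA 0.7.5a, bedtools 2.17, SAMtools 1.3.1 and FastQC for these reads of 50 bp. How SICER was set, its threshold and its control: not given in the sources used here. The deposited files give each island's position and a p-value by the authors, which could also be a q-value, since no source says which. They hold no read counts, so depth is unknown and no counting interval was computed.

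Genes came from the RefSeq table of GRCm38.p6 (mm10 coordinates), which has no strand, and starts, strands and sequences from its promoter table (33 of 39 genes). Overlaps, widths (end minus start plus 1) and covered shares were computed with Python 3.11.15, numpy 2.4.6 and pandas 2.3.3, and plotted with matplotlib 3.10.9. The overlap functions were tested on simulated data. Samples were grouped by mark from their titles, with the experiment number as replicate. The 39 genes, the further pathway genes and the marker lists were chosen with earlier results of these data known, so counts over them are descriptions, set beside all 21887 genes. Every gene was named. Values were given in full for genes whose pattern differed from the commonest one, for genes whose H3K4me3 or H3K27me3 call differed between experiments, and for the 5 widest and 5 narrowest H3K4me3 islands. Some others were described after their values were seen. Sequence was printed for the widest gene and for some genes whose pattern differed. Alternatives were each experiment alone, either experiment, other windows, 50% coverage of the window, only the islands up to the median p-value of their file, start ends alone, whole genes, and calls combined over marks inside each experiment (a replicate block). Marking at any listed start was added after seeing the data. Some further pathway genes are not reported here.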

Additional observations from a re-analysis of the deposited data

How the results depend on the processing

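Of 71 alternative values, 60 stayed within 1.5 times the reported count or, for the median width, within 1 SD between experiments, and 11 moved further. That SD was taken from the medians of each experiment alone, so these medians were nearly bound to lie within it. Shares of all genes under the same setting are given in parentheses. The count with H3K27me3 (5) ranged from 5 to 9 when each experiment was left out (29.3% and 27.1%), and was 9 with the mark in either experiment (33%). It was 1, Bmi1, with islands at or below their file's median p-value (18.8%), 3 at the annotated start end (21.5%) and 3 at any listed start (21.6%), both over the 33 genes with a listed start. The count with H3K4me3 and H3K27me3 at the same end (4) was 0 with islands at or below the median p-value (0.95%). The count with H3K4me1 (31) was 19, or 48.7%, when at least 50% of the window had to be covered (43.7%). The count with H3K9me3 (0) ranged from 0 to 1 when each experiment was left out (16.7% and 14.8%). It was 1, Kdm4a, in either experiment (18.2%) or with windows of 2.5 kb (14%), and 1, Jarid2, over whole genes (16.3%). With each experiment left out, the H3K4me3 count stayed at 35, the H3K4me1 count ranged from 31 to 35, and the median H3K4me3 width from 3.4 to 5.0 kb.

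Combining marks within each experiment as a replicate block gave 28 genes with H3K4me3 and no H3K27me3, against 30 reported. The other counts could not change under this setting, because their rule stays the same. It is therefore no check of them, although they are included in the alternative values above. Whether the number pairs the libraries is not stated in the labels, and presence calls could not show it. Read counts were not used, so a gene without an island may hold the mark below what was called.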

Other observations

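Of the further pathway genes, 8 lie on the X chromosome, among them the H3K27 demethylase Kdm6a, the H3K4 demethylase Kdm5c and the H3K9 methyltransferase Suv39h1. All 8 had H3K4me3 at an end in both experiments, and 2 of them, Rbbp7 and Bcor, had H3K4me1 as well. That is 25% of the X-linked pathway genes with H3K4me3, against 84.6% of 52 autosomal ones. Over all genes with H3K4me3 the shares were 21.2% of 406 on the X chromosome and 85.4% on the autosomes. H3K4me1 was called at 4 of the 8 genes in Exp1 and at 3 in Exp2. Over all 966 genes on the X chromosome, with or without H3K4me3, it was called at 234 in Exp1 and 177 in Exp2. The Y-linked paralogues Kdm5d and Uty had H3K4me3 without H3K4me1, and the same held for all 4 Y-linked genes with H3K4me3. None of the 39 genes lies on either sex chromosome.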
